A study of Rattus norvegicus and Ovis aries with 113 samples.

Results

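The genes described here are 10 genes used as markers of astrocytes in brain: GFAP, SLC1A2, SLC1A3, GLUL, S100B, ALDH1L1, GJA1, SLC4A4, ALDOC and GJB6. They were listed by symbol and not by a rule on their measured values, but with earlier results of these data known. All 10 were found among the 31304 genes of the sheep count table and among the 38675 genes of the rat count table. The sheep samples were 50 brain libraries from 5 post-pubertal males (numbered 687, 688, 690, 694 and 699), with 10 regions of 1 hemisphere from each animal, and 5 sperm libraries from the same animals. Neocortex was sampled as frontal (FC), motor (MC), prefrontal (PC), posterior parietal (PPC) and visual cortex (VC). The other regions were hippocampus (HC), entorhinal cortex (EC), basal ganglia (BG), cerebellum (CB) and pons. The rat samples, from Sprague Dawley animals, were whole brain and sperm of 15 post-pubertal males and whole brain and ovary of 14 females, for which the labels give no age. The labels name no transgene or treatment for any group, and all 113 libraries were made from polyadenylated RNA with stranded kits that differed between the species.

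Astrocytes are the glial cells that take up glutamate and potassium released by neurons, return glutamine to them, couple to each other through gap junctions and brace the tissue with intermediate filaments. Glutamate enters through SLC1A2 (GLT-1) and SLC1A3 (GLAST) and is turned into glutamine by GLUL (glutamine synthetase). GFAP forms the filaments, S100B binds calcium, ALDH1L1 (a folate enzyme) and ALDOC (an aldolase of glycolysis) are cytosolic enzymes, GJA1 (connexin 43) and GJB6 (connexin 30) form the gap junctions, and SLC4A4 carries sodium and bicarbonate across the membrane. Fibrous astrocytes of white matter are known for high GFAP, and Bergmann glia, the radial astrocytes of the cerebellar cortex, for high SLC1A3.

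In the rat genome build GRCr8 the 10 genes lie on 8 chromosomes, and RefSeq gives each at least 1 transcript start. The 250 bases upstream of a start are printed for the 5 genes that had a sheep brain region with no overlap with the other 45 libraries, and for ALDH1L1, the gene called higher in ovary under every alternative tried. The sequences are RefSeq's for GRCr8, on the gene's strand from 5′ to 3′. Capitals mark the letters CCAAT (the CCAAT box), GGGCGG (the GC box), TATAAA (the TATA box) and TTCNNNGAA (a STAT-type repeat), each searched on both strands, so that ATTGG and CCGCCC are marked as well. Gfap is shown for chr10:88361662-88361911 on the minus strand, Slc1a2 for chr3:109459859-109460108 on the plus strand, Glul for chr13:68575816-68576065 on the plus strand, S100b for chr20:12381082-12381331 on the minus strand, Aldh1l1 for chr4:124616970-124617219 on the plus strand and Aldoc for chr10:63715294-63715543 on the plus strand.
Gfap: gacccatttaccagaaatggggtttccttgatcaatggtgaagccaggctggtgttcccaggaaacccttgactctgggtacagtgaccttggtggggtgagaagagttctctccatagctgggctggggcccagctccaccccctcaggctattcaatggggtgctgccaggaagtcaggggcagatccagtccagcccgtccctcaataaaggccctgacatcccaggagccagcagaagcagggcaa
Slc1a2: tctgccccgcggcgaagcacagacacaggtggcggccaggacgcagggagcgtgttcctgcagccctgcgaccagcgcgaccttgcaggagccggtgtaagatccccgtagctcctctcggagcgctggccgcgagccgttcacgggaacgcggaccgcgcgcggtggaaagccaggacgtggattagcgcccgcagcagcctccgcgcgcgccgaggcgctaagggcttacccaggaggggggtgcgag
Glul: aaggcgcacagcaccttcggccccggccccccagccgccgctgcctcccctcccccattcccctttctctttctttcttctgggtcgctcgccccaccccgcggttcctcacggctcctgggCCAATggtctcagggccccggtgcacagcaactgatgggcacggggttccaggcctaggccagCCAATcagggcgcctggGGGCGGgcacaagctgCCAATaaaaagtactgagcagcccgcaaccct
S100b: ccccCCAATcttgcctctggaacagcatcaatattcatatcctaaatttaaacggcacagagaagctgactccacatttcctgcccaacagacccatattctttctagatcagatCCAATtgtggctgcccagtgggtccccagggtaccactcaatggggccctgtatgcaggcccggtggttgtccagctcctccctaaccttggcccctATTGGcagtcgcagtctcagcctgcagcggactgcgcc
Aldh1l1: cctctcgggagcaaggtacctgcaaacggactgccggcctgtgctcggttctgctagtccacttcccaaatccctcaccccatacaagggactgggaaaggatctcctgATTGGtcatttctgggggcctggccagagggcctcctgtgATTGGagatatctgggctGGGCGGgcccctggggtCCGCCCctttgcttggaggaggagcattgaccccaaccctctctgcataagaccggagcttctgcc
Aldoc: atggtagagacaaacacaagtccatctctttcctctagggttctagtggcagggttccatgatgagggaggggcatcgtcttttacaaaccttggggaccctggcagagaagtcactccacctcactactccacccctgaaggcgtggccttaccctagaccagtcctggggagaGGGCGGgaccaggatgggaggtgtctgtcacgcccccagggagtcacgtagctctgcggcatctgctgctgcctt

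The CCAAT box was found in 4 of the 15 windows of the 10 genes, upstream of 3 genes, and the GC box in 6 windows, upstream of 4 genes. Over all 33469 rat windows of this length, 34.0% held a CCAAT box and 30.5% a GC box. The TATA box letters and the STAT-type repeat were found in 0 of the 15 windows, against 12.9% and 7.67% of all windows. The 3 windows of Slc1a3 overlap for most of their length, so the 15 are not all separate sequences. The windows of the 10 genes ranged from 45.6% to 80.8% in GC content, with a median of 51.2% over all windows. In the same annotation Glul overlaps Rgsl1, Rgsl2h, Teddm1b and Teddm1a, S100b overlaps Dip2a and Slc4a4 overlaps LOC134481884, so rat reads of these genes may be shared. No sheep sequence was used here.

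The total count, in units of 1e+06, was 46.7 to 72.4 per sheep brain library and 38.2 to 119 per rat brain library. Sperm libraries ran from 13.7 to 65.1 in both species and ovary libraries from 50.5 to 60.3. Some libraries stood apart. In 4 of the 5 sheep sperm libraries 5 genes took 58.2% to 87.8% of all counts, and in female rat brain library 1 and male rat brain library 4 they took 94.8% and 89.2%. In the other 27 rat brain libraries that share was 3.54% to 59.6%, with a median of 4.94%, and it was above 10% in 10 of them. The entry with most counts was Rn45s in female libraries 1 (29.9%) and 22 (18.7%) and in male library 4 (28.4%). Such shares lower the plain CPM of every other gene in those libraries. Rat sperm libraries 16 and 17 had 64.5% and 66.2% of genes at 0. Tissue markers followed the labels. In cerebellum 6 of 6 cerebellar neuron genes were higher than in the other regions, beside 29.1% of all genes. In sheep sperm 11 of 11 spermatid genes were higher than in brain, beside 33.1% of all genes. In rat ovary 7 of 7 granulosa and 6 of 6 theca and luteal genes were higher than in brain, beside 27.7% of all genes. In rat sperm 12 of 12 spermatid genes were higher than in male brain, beside 27.7% of all genes. Their summed level ranged from 320 to 30896 plain CPM across the rat sperm libraries. The entry with most counts there was Serpina1f in libraries 3, 6, 8, 10 and 11, Serpina16 in 12, 15 and 17, and Hba-a1 in 7 and 16. In the others it was Rn45s. The part of other cells in the rat sperm values was not tested.

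GFAP was the gene with the strongest single peak among regions. Its level, in counts per 1e+06 counts scaled by the trimmed mean of M values (TMM-scaled CPM), was 13491, 18216, 17619, 14332 and 14988 in the pons of sheep 687, 688, 690, 694 and 699. The mean was 15729 ± 2077 (SD, n = 5), and the other 45 brain libraries lay between 928 and 5742, so pons did not overlap any other region. Of all genes tested, 0.998% separated pons from every other library in this direction. Against the mean of the other 9 regions GFAP was higher by 2.76 on the log2 scale (SE 0.17, adjusted p = 7.44e-17), and by 2.72 to 2.80 when each sheep in turn was left out. Hippocampus came next with 3971 ± 635 (SD, n = 5), and the step from pons to hippocampus, 1.99 on the log2 scale, was called (SE 0.30, adjusted p = 2.35e-06). Below it the order ran cerebellum, entorhinal, posterior parietal, motor, prefrontal and visual cortex, basal ganglia and frontal cortex, and 0 of these 8 steps was called.

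The low end of the GFAP order was shallow. Frontal cortex held 928, 1315, 2111, 1495 and 2204 TMM-scaled CPM in the 5 sheep, and basal ganglia 1062, 2535, 1507, 2139 and 1127. The frontal value of sheep 687 was the lowest of all 50 libraries, and the other 9 values lay inside the range of the remaining cortical regions (1059 to 4441). Frontal cortex fell by 0.89 on the log2 scale against the other 9 (SE 0.24, adjusted p = 0.0143), a call lost without sheep 687 or 694 (adjusted p 0.0614 to 0.0639, log2 fold change −0.90 to −0.74). Basal ganglia fell by 0.83 (SE 0.24, adjusted p = 0.00627), a call lost without sheep 699 (log2 fold change −0.71, adjusted p = 0.0598). In these bulk samples fewer cells of a type and less RNA per cell cannot be told apart, here and in every comparison that follows.

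S100B shared the pons peak. Its levels there were 3275, 4381, 4441, 2565 and 3265 TMM-scaled CPM, a mean of 3585 ± 807 (SD, n = 5), while the other 45 libraries lay between 805 and 2400. The groups did not overlap, as was so for 0.998% of all genes with pons on top. The lowest pons library, sheep 694, was close to the highest library outside pons. Pons was higher than the other 9 regions by 1.23 on the log2 scale (SE 0.15, adjusted p = 4.71e-09), and higher than posterior parietal cortex, next in the order, by 0.82 (SE 0.23, adjusted p = 0.00376). S100B fell in basal ganglia by 0.63 (SE 0.18, adjusted p = 0.00567) and in cerebellum by 0.52 (SE 0.18, adjusted p = 0.0108). The cerebellar call was lost without sheep 694 or 699 (adjusted p 0.0555 to 0.0610, log2 fold change −0.48 to −0.41).

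**Figure D1:**
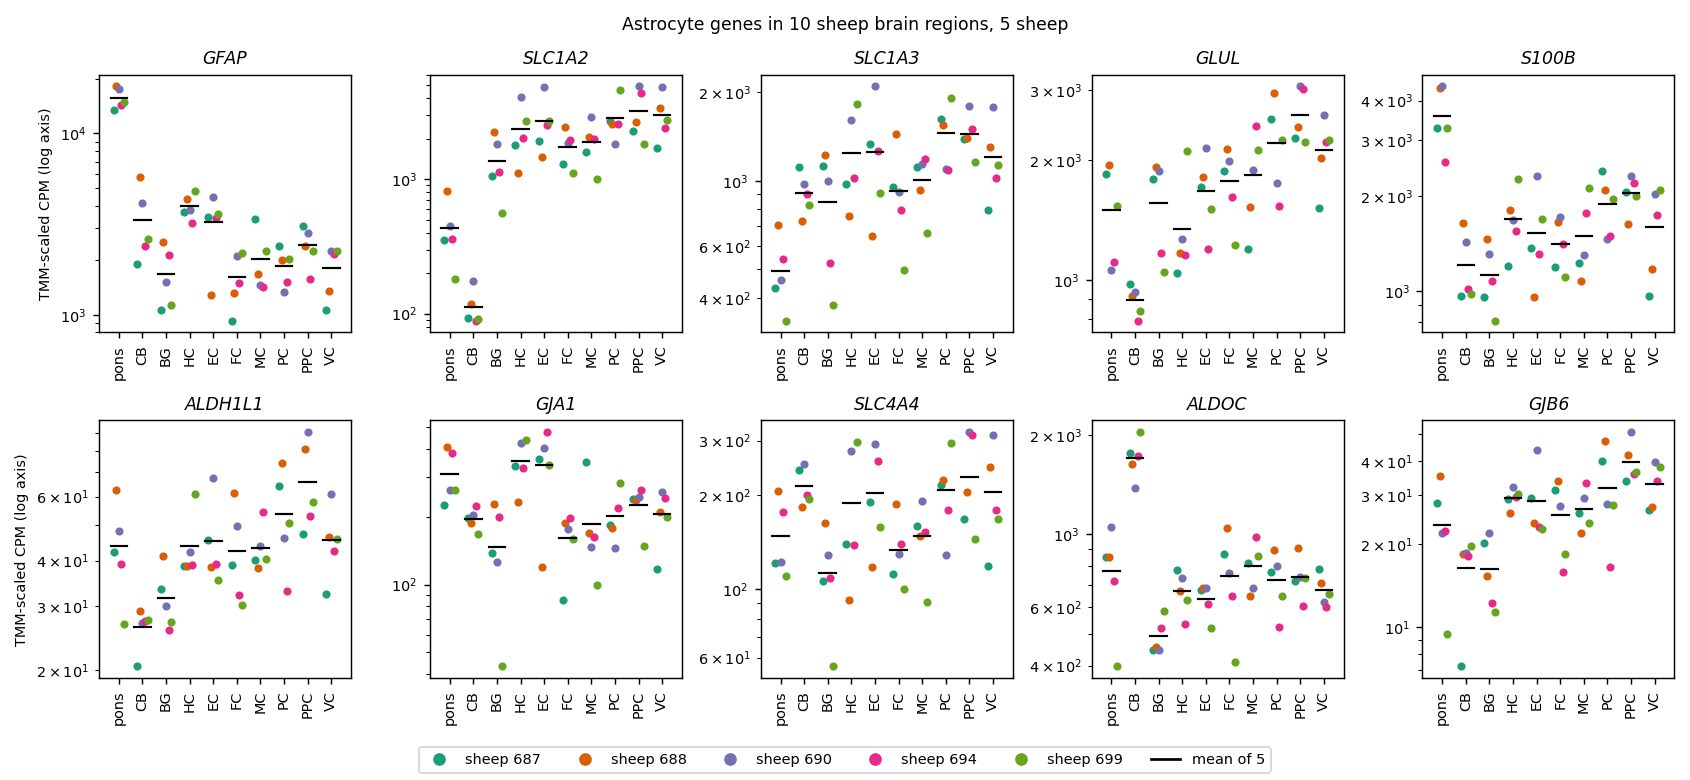
Level of each of the 10 genes (TMM-scaled CPM, log axis) in 10 sheep brain regions, 1 point per sheep coloured by animal and a line at the mean of 5. The 5 pons points of GFAP lie between 13491 and 18216, above all other libraries, and the 5 cerebellar points of SLC1A2 lie between 88.7 and 174, below all other libraries.

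SLC1A2, the main glutamate transporter of forebrain astrocytes, had the widest range of the 10 genes, with a ratio of 28.4 between its highest and lowest regional means. In the cerebellum it stood at 93.0, 117, 174, 88.7 and 91.8 TMM-scaled CPM, a mean of 113 ± 35.8 (SD, n = 5), below all 45 other libraries (183 to 4915). Such a separation below every other library was seen for 5.23% of all genes in cerebellum. The cerebellum was lower than the other 9 regions by 4.08 on the log2 scale (log2 fold change −4.08, SE 0.39, adjusted p = 2.93e-12). Pons followed, with 354, 815, 446, 357 and 183 TMM-scaled CPM and a log2 fold change of −1.93 (SE 0.33, adjusted p = 4.20e-06). Basal ganglia, next in the order, exceeded pons by 1.66 on the log2 scale (SE 0.38, adjusted p = 0.000497), and pons exceeded cerebellum by 1.93 (SE 0.39, adjusted p = 4.30e-05).

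At the top of the SLC1A2 order posterior parietal, visual, prefrontal and entorhinal cortex and hippocampus had means from 3208 down to 2349, and 0 of the steps between neighbours from posterior parietal cortex to basal ganglia was called. The 5 posterior parietal values were 2274, 2655, 4915, 4358 and 1839 TMM-scaled CPM and spanned the means of all the upper regions. The low cerebellum and pons enter the mean of the other 9 for every upper region, and 5 regions were called higher than it. The log2 fold change was 1.28 in posterior parietal cortex (SE 0.25, adjusted p = 0.000539) and 1.19 in visual cortex (SE 0.25, adjusted p = 0.00152). In prefrontal cortex it was 1.10 (SE 0.25, adjusted p = 0.00402), lost without sheep 699 (0.78, adjusted p = 0.0887). In entorhinal cortex it was 1.00 (SE 0.25, adjusted p = 0.0140), lost without sheep 687, 690, 694 or 699 (0.81 to 1.02, adjusted p 0.0545 to 0.113). In hippocampus it was 0.78 (SE 0.26, adjusted p = 0.0402), lost without sheep 687, 690, 694 or 699 (0.62 to 0.82, adjusted p 0.109 to 0.179) and in limma voom with quality weights (adjusted p = 0.130).

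SLC1A3, the other astrocytic glutamate transporter, did not follow SLC1A2 into the cerebellum. Its cerebellar levels were 1115, 730, 974, 900 and 827 TMM-scaled CPM, a mean of 909 ± 146 (SD, n = 5) inside the range of the cortical regions, and cerebellum against the other 9 was not called. Pons was lowest, with 432, 705, 460, 540 and 334 and a mean of 494 ± 139 (SD, n = 5). Against the other 9 regions the pons log2 fold change was −1.18 (SE 0.24, adjusted p = 6.02e-05), the only call of SLC1A3 in the 10 regions. Prefrontal cortex was highest with a mean of 1451, and of the 9 steps in the order only the last, from basal ganglia to pons, was called (0.78 on the log2 scale, SE 0.29, adjusted p = 0.0271).

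GLUL, which closes the cycle by making glutamine, was lowest in the cerebellum with 980, 916, 933, 793 and 839 TMM-scaled CPM. The mean was 892 ± 75.3 (SD, n = 5), and the other 45 libraries began at 1041, so the groups did not overlap. Of all genes tested, 5.23% separated cerebellum from every other library in this direction. Its cerebellar log2 fold change was −1.02 (SE 0.17, adjusted p = 2.52e-06). Posterior parietal cortex was highest with 2274, 2427, 3069, 3017 and 2229, a mean of 2603 ± 409 (SD, n = 5), and was higher than the other 9 by 0.69 on the log2 scale (SE 0.15, adjusted p = 0.00179). Pons, low for both transporters, was not called for GLUL (1500 ± 407, SD, n = 5).

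Calls were frequent over all genes in cerebellum (29.1% higher, 31.6% lower) and in pons (25.7% higher, 22.6% lower). These shares stand behind every count of a gene list in those regions. Of the other members of the glutamate and glutamine cycle, in cerebellum 5 of 13 such genes were higher and 7 lower, with a median log2 fold change of −0.57 beside −0.04 over all genes. SLC1A6 (EAAT4), the glutamate transporter of Purkinje cells, rose by 2.54 (SE 0.16) and SLC38A1, a glutamine transporter, by 1.38 (SE 0.13). SLC1A5 (ASCT2), a neutral amino acid exchanger, fell by 2.00 (SE 0.21), and SLC17A6, a vesicular glutamate transporter, by 1.88 (SE 0.56). In pons 3 of 13 were higher and 4 lower. There SLC17A6 rose by 2.22 (SE 0.39), and SLC17A7, the vesicular transporter of cortical neurons, fell by 3.27 (SE 0.56).

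ALDH1L1 and ALDOC, the 2 enzymes, parted in the cerebellum. ALDOC, also known as zebrin II in Purkinje cells, reached 1761, 1638, 1384, 1726 and 2045 TMM-scaled CPM there, a mean of 1711 ± 238 (SD, n = 5), and the other 45 libraries lay between 397 and 1056. The groups did not overlap, as was so for 6.73% of all genes with cerebellum on top. ALDOC was higher in cerebellum than in the other 9 regions by 1.31 on the log2 scale (SE 0.12, adjusted p = 1.92e-12), and motor cortex, next in the order, was lower than cerebellum by a called step of 1.10 (SE 0.19, adjusted p = 5.07e-06). Basal ganglia were lowest with 447, 455, 446, 520 and 586 and a log2 fold change of −0.69 (SE 0.15, adjusted p = 0.000270). The 9 regions from motor cortex down to basal ganglia held no called step between neighbours.

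ALDH1L1 was lowest where ALDOC was highest. The cerebellar values were 20.4, 29.1, 26.9, 27.3 and 27.5 TMM-scaled CPM, a mean of 26.2 ± 3.36 (SD, n = 5) that overlapped basal ganglia. Its log2 fold change was −0.79 in cerebellum (SE 0.17, adjusted p = 0.000146) and −0.50 in basal ganglia (SE 0.17, adjusted p = 0.0236), the second lost without sheep 690 or 694 (−0.47 to −0.42, adjusted p 0.0767 to 0.0985). Posterior parietal cortex was highest with 47.3, 81.0, 90.3, 53.0 and 58.1 TMM-scaled CPM and a log2 fold change of 0.69 (SE 0.15, adjusted p = 0.00240). No step between neighbours in the ALDH1L1 order was called.

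Of the other folate one-carbon enzymes, 6 of 8 were higher in pons and 0 lower, with a median log2 fold change of 0.65 beside 0.03 over all genes. MTHFD2, a mitochondrial enzyme of the pathway, rose by 1.65 (SE 0.16) and SHMT1, a serine hydroxymethyltransferase, by 1.53 (SE 0.16). ALDH1L1 itself was not called there, at 43.8 ± 13.1 TMM-scaled CPM (SD, n = 5). In cerebellum SHMT1 was the 1 gene of 8 that fell, by 1.40 (SE 0.22). Of 21 other glycolysis and lactate genes, 6 rose and 4 fell in cerebellum, shares no higher than those of all genes. ENO2, the neuronal enolase, rose by 0.98 (SE 0.21), PFKL, a phosphofructokinase, by 0.66 (SE 0.10), and LDHA, the lactate dehydrogenase A chain, fell by 2.20 (SE 0.28).

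The 2 connexins had different orders. GJA1 was highest in hippocampus (336, 233, 424, 327 and 438 TMM-scaled CPM), entorhinal cortex (358, 120, 402, 474 and 338) and pons (226, 405, 262, 381 and 262). GJB6 was highest in posterior parietal cortex (33.9, 41.9, 50.9, 35.8 and 36.5) and visual cortex (mean 33.1 ± 5.95, SD, n = 5). Both were lowest in basal ganglia, GJA1 with 137, 226, 126, 199 and 43.4 and GJB6 with 20.2, 15.3, 22.0, 12.3 and 11.4 TMM-scaled CPM. In either order 0 steps between neighbours were called.

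Hippocampal GJA1 rose by 0.74 on the log2 scale (SE 0.22, adjusted p = 0.0206), a call lost without sheep 690 or 699 (0.60 to 0.66, adjusted p 0.0700 to 0.156). Pons GJA1 rose by 0.52 (SE 0.22, adjusted p = 0.0475), lost without sheep 688, 690, 694 or 699 (0.39 to 0.58, adjusted p 0.0549 to 0.198) and in DESeq2 (adjusted p = 0.0662). Basal ganglia GJA1 fell by 0.67 (SE 0.25, adjusted p = 0.0377), lost without sheep 687, 690, 694 or 699 (−0.75 to −0.48, adjusted p 0.0693 to 0.153). GJB6 fell by 0.77 in basal ganglia (SE 0.21, adjusted p = 0.00452) and by 0.75 in cerebellum (SE 0.21, adjusted p = 0.00206). In posterior parietal cortex GJB6 rose by 0.67 (SE 0.18, adjusted p = 0.0136), lost without sheep 690 or 694 (0.62 to 0.67, adjusted p 0.0555 to 0.0836).

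Other connexins and pannexins of the list belong to other cells. In pons GJB1, a connexin of oligodendrocytes, rose by 3.13 (SE 0.32), while GJD2, the connexin of neurons, fell by 1.90 (SE 0.37) and PANX1 by 1.50 (SE 0.20). That made 2 of 10 higher and 4 lower. In cerebellum 6 of 10 fell and 0 rose, PANX2 by 1.89 (SE 0.23) and GJA5, a connexin of vessels, by 1.54 (SE 0.42). In posterior parietal cortex 6 of 10 rose and 0 fell, beside 7.99% of all genes higher and 2.42% lower. GJA5 rose there by 1.03 (SE 0.33) and PANX2 by 1.03 (SE 0.18).

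SLC4A4 varied least, with a ratio of 2.04 between posterior parietal cortex (167, 205, 319, 312 and 144 TMM-scaled CPM) and basal ganglia (106, 163, 128, 108 and 56.2), whose values overlap. The fall in basal ganglia, 0.71 on the log2 scale (SE 0.23, adjusted p = 0.0196), was its only call and was lost without sheep 687, 694 or 699 (−0.74 to −0.59, adjusted p 0.0533 to 0.0883). Of 9 other bicarbonate transport genes, 5 rose and 3 fell in pons, where 48.3% of all genes were called. CA14, a membrane carbonic anhydrase, rose by 2.66 (SE 0.26) and SLC4A10, a neuronal bicarbonate transporter, fell by 1.68 (SE 0.34).

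Each of the 10 genes differed somewhere among the 10 regions, as 76.7% of all genes tested did. Adjusted p ran from 1.19e-14 for GFAP to 0.0211 for SLC4A4. Leaving out sheep 687, 690 or 694 ended the SLC4A4 call (adjusted p 0.0755 to 0.129). Of the 45 pairs of regions, 20 were called for GFAP and for SLC1A2, 15 for GLUL, 14 for ALDOC and for GJB6, 13 for S100B, 12 for SLC1A3, 11 for ALDH1L1, 7 for GJA1 and 5 for SLC4A4. A pair called a median of 17.9% of all genes.

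The 5 neocortical regions, frontal, motor, prefrontal, posterior parietal and visual cortex, were not separated by these genes in the test used. In edgeR's test 0 of the 10 genes differed among them, and 2 (ALDH1L1 and SLC4A4) had an unadjusted p below 0.05. The lowest adjusted p was 0.343, and the limma voom fit called 0 with 1 unadjusted p below 0.05. Of all 21147 genes tested 4 were called, or 0.0189%. The ratio of the highest to the lowest neocortical mean ran from 1.18 for ALDOC to 1.85 for SLC1A2. This does not show that the regions are alike.

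**Figure D2:**
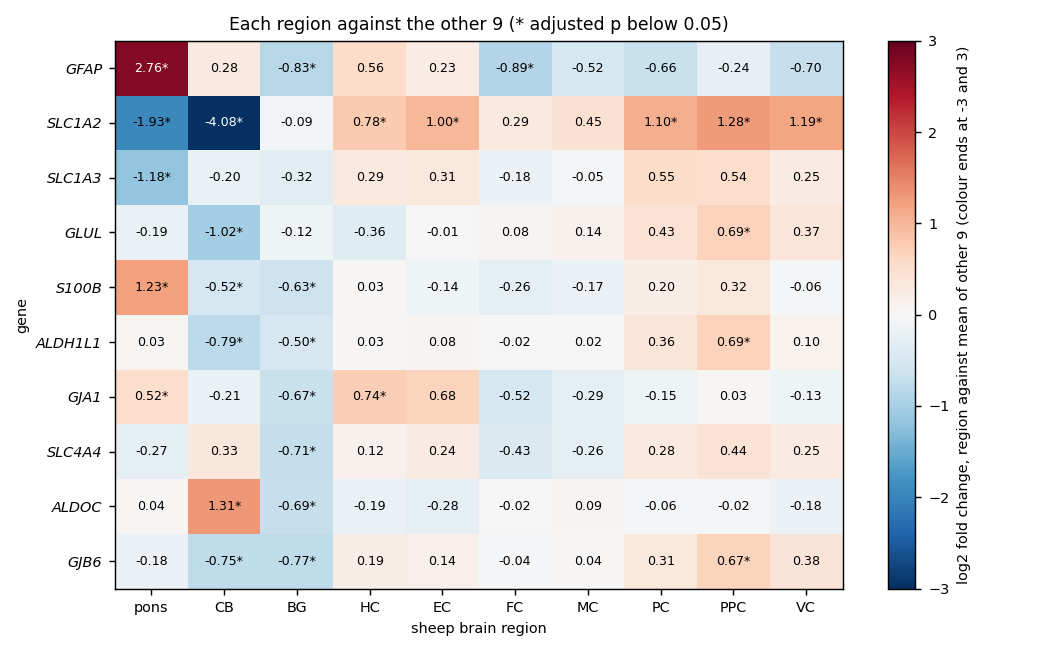
Log2 fold change of each gene (rows) in each sheep brain region (columns) against the mean of the other 9 regions, with an asterisk where the adjusted p is below 0.05 and colour ends at −3 and 3. GFAP in pons (2.76) and SLC1A2 in cerebellum (−4.08) are the extremes, and basal ganglia hold 7 asterisks, all on falls.

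By region the calls were uneven, and 28 of the 100 gene and region combinations were called. Basal ganglia had 7 of the 10 genes lower and 0 higher, beside 27.6% of all genes called and 13.0% called lower. Cerebellum had 1 higher and 5 lower, beside 60.7% called (29.1% higher, 31.6% lower), and pons 3 higher and 2 lower, beside 48.3% called (25.7% higher, 22.6% lower). Posterior parietal cortex had 4 higher and 0 lower beside 10.4% called and 7.99% called higher. Hippocampus had 2 higher, where 11.0% of all genes were called and 7.15% called higher. Frontal cortex had 1 lower, where 7.85% were called and 2.12% called lower. Prefrontal cortex (6.31% called, 4.31% higher), visual cortex (5.65% and 4.71%) and entorhinal cortex (3.36% and 3.2%) had 1 higher each. Motor cortex had 0 calls in edgeR's test (3.55% of all genes called). GFAP alone had an unadjusted p below 0.05 there, at a log2 fold change of −0.52 (adjusted p = 0.197). It was called lower by limma voom with sample weights (adjusted p = 0.0251) and by edgeR without sheep 687 (adjusted p = 0.0374), while DESeq2 gave 0.148.

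In pons the wider list of astrocyte genes, chosen like the others with results of these data known, had 11 of 24 higher and 3 lower, with a median log2 fold change of 0.36 beside 0.03 over all genes, of which 25.7% were higher and 22.6% lower. SLC14A1, a urea transporter of astrocytes, rose by 5.06 (SE 0.35) and PAQR6 by 2.33 (SE 0.26), while GLDC fell by 0.79 (SE 0.14) and CBS by 0.77 (SE 0.17). Of 13 genes of reactive and fibrous astrocytes 8 rose and 0 fell, CP (ceruloplasmin) by 2.94 (SE 0.29) and CD44, a hyaluronan receptor, by 2.68 (SE 0.36). All 6 other S100 genes tested rose, S100A1 by 2.81 (SE 0.27) and S100A10 by 2.16 (SE 0.25). Of the 8 other intermediate filament genes 5 rose and 0 fell. NEFH, a neurofilament chain, rose by 3.69 (SE 0.32), with 3013 TMM-scaled CPM in sheep 690 and 56.4 to 812 in the other 4. PRPH (peripherin) rose by 9.69 (SE 0.48), also with most of it in sheep 690 (348 TMM-scaled CPM against 0.0214 to 39.3 in the other 4).

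Oligodendrocyte genes moved with the pons results. All 10 rose, with a median log2 fold change of 2.74, among them MBP, a protein of myelin (2.95, SE 0.37). Their summed level was 19428 to 97204 TMM-scaled CPM in pons and 1410 to 35798 elsewhere. Of 8 neuron genes 1 rose and 6 fell, with a median of −1.71. Of 6 Schwann cell and peripheral nerve genes 5 rose, a list that shares 1 gene with the oligodendrocyte list. Of 4 ependymal and choroid genes 3 rose. The part of these cells in the GFAP and S100B values was not tested.

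In cerebellum the wider astrocyte list had 2 of 24 higher and 15 lower, with a median log2 fold change of −0.84 beside −0.04 over all genes. GPC5, a glypican, fell by 5.22 (SE 0.27) and NTSR2, a neurotensin receptor, by 3.45 (SE 0.25), while CBS rose by 1.36 (SE 0.14) and GLDC by 0.82 (SE 0.12). Among the regulators of astrocyte genes 4 of 12 rose and 6 fell. NFIA rose by 0.82 (SE 0.10), and LHX2, a factor of the telencephalon, fell by 8.04 (SE 0.75). Of 5 Bergmann glia genes PTCH1 (the hedgehog receptor) rose by 1.25 (SE 0.12) and GDF10 by 1.05 (SE 0.28), and HOPX fell by 2.14 (SE 0.21).

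Genes of most other glia and of vessels also fell in cerebellum. All 8 microglia genes fell, with a median of −2.32, and their summed level was 29.6 to 80.5 TMM-scaled CPM against 121 to 541 elsewhere. Oligodendrocyte genes had 8 of 10 lower and their precursors 4 of 5, and 5 of 6 endothelial genes fell while TIE1 rose by 3.08 (SE 0.16). The 6 cerebellar neuron genes rose, led by GABRA6 (13.1, SE 0.62) and CBLN3 (8.06, SE 0.24), 2 genes of granule cells. Their summed level was 2353 to 2822 against 10.5 to 163 elsewhere. The part of cell composition in the cerebellar values of SLC1A2, GLUL and ALDOC was not tested.

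In basal ganglia the wider astrocyte list had 1 of 24 higher and 7 lower, with a median log2 fold change of −0.21 beside −0.01 over all genes, of which 14.6% were higher and 13.0% lower. FGFR3, a growth factor receptor of astrocytes, fell by 0.89 (SE 0.22) and CLDN10, a claudin, by 0.76 (SE 0.18), while NTSR2 rose by 0.61 (SE 0.18). Of 12 regulators 4 fell and 0 rose, NFIX by 1.18 (SE 0.16) and NFIB by 0.85 (SE 0.14). Of 8 microglia genes 4 rose and 0 fell, and 0 of 10 oligodendrocyte genes was called. Microglial sums were 173 to 514 TMM-scaled CPM there, inside the range elsewhere (29.6 to 541).

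In posterior parietal cortex the wider list had 11 of 24 higher and 1 lower, with a median of 0.42, where 7.99% of all genes were higher and 2.42% lower. GPC5 rose by 1.04 (SE 0.16), ACSBG1, an acyl-CoA synthetase, by 0.85 (SE 0.18), and SLC14A1 fell by 2.23 (SE 0.63). Endothelial genes rose as well, 5 of 6 with a median of 1.29, and 5 of 8 microglia genes with a median of 0.72. The endothelial sum of sheep 694 there was 1037 TMM-scaled CPM and the next highest 300, with VWF (von Willebrand factor) at 424 against 29.1 to 82.1 in the other 4. Without sheep 694 the calls of SLC1A2, GLUL and ALDH1L1 held and that of GJB6 was lost, as given above.

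**Figure D3:**
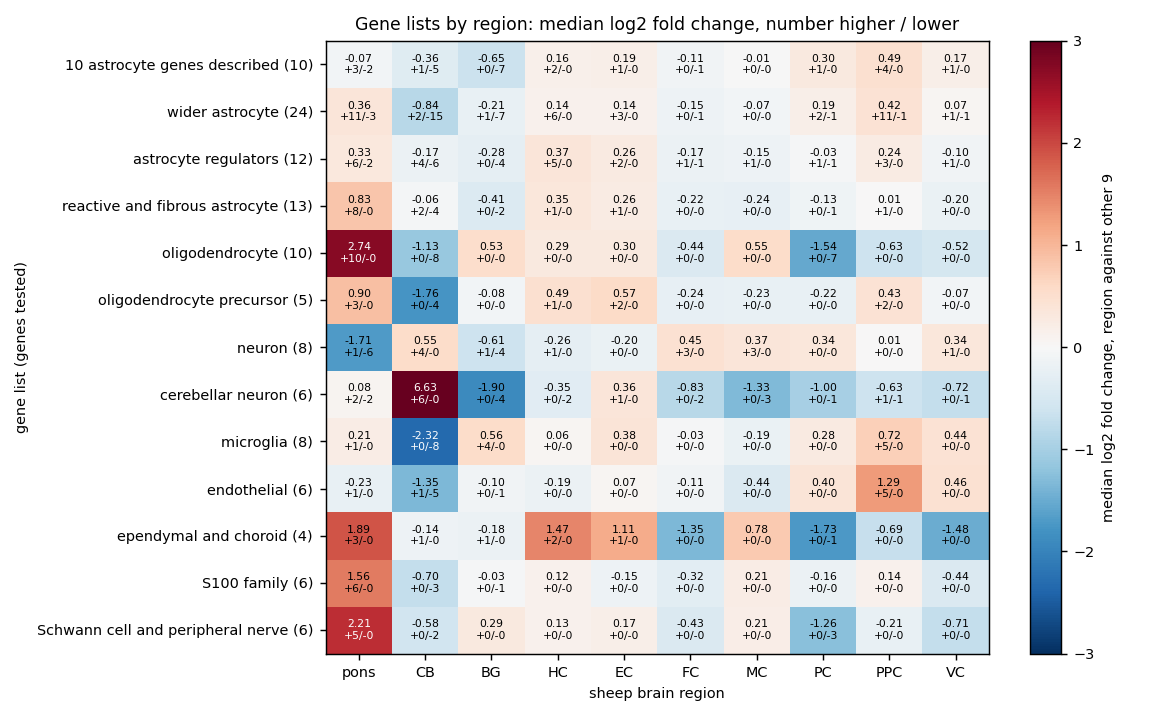
Median log2 fold change (colour) of the 10 genes and of other gene lists in each sheep brain region against the other 9, with the number of genes higher and lower in each cell and the number tested after each list's name. The pons column shows 10 of 10 oligodendrocyte genes higher and the cerebellum column 8 of 8 microglia genes lower.

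The genes differed in how much of their variation lay between regions. In sums of squares of log2(CPM + 1) over the 50 libraries, region took 87.8% for SLC1A2, 82.8% for GFAP and 72.2% for ALDOC, and 36.2% for SLC4A4 and 45.2% for GJA1, beside a median of 49.1% over all genes. The animal took most for ALDH1L1 (12.6%) and least for GFAP (1.00%), beside a median of 8.01%. For SLC4A4 the remainder, which belongs to single samples, was 54.1%.

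With region means removed, Pearson's r of log2(CPM + 1) over the 50 libraries was positive for 42 of the 45 pairs of genes, with a median of 0.48 and a range from −0.20 to 0.88. SLC1A2 and SLC4A4 had 0.88, SLC1A3 and SLC4A4 0.87, ALDH1L1 and GJB6 0.80, and SLC1A2 and SLC1A3 0.79. Mean levels of other gene lists moved with the 10 genes as well. The median r over the 10 genes was 0.70 with the wider astrocyte list (0.24 to 0.85), 0.51 with oligodendrocyte precursor genes (−0.50 to 0.57) and 0.40 with microglia genes (−0.10 to 0.74). It was −0.19 with oligodendrocyte genes (−0.24 to 0.23) and −0.19 with neuron genes (−0.40 to 0.61). ALDOC had the lowest r of the 10 with the wider astrocyte list (0.24) and the highest with neuron genes (0.61). The part of these cells in the correlations was not tested. With regional differences left in, the median was 0.28 and 33 pairs were positive. Over the 29 rat brain libraries with sex means removed, 41 of 45 pairs were positive with a median of 0.32, led by GLUL and S100B (0.89) and S100B and ALDOC (0.86). These values are descriptions: libraries share animals, scaling and depth.

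**Figure D4:**
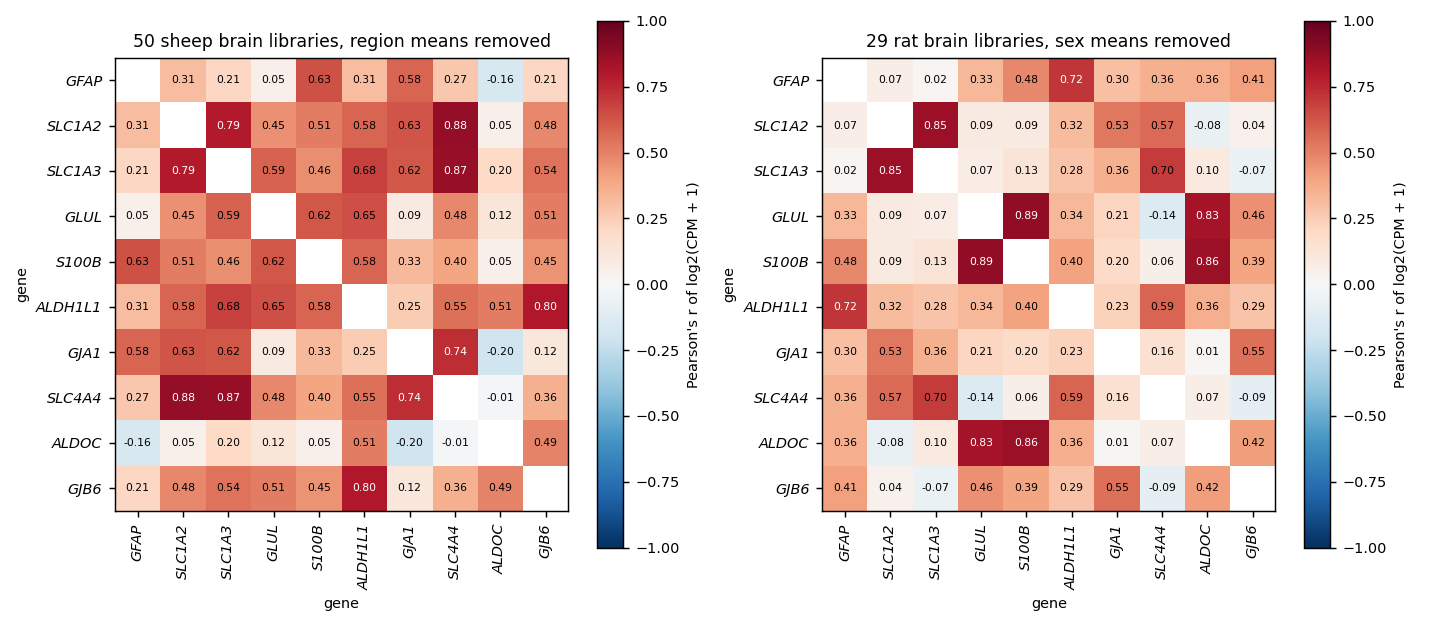
Pearson's r of log2(CPM + 1) for each pair of the 10 genes, over the 50 sheep brain libraries with region means removed and over the 29 rat brain libraries with sex means removed. In sheep 42 of 45 pairs are above 0, and in rat 41 of 45.

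The genes most like each of the 10 across the 50 sheep brain libraries were ranked among 9357 genes with a mean of at least 10 CPM. For GFAP they were GFPT2 (r = 0.89), ASAP3 (0.88) and SMOX (0.86), and for S100B they were AK3 (0.87), CA3 (0.86) and PLIN3 (0.85). SLC1A2 was most like ZNRF3 (0.96), NR2E1 (0.95) and PAMR1 (0.94), and SLC1A3 most like PREX2 (0.86), B3GALNT2 (0.84) and PITPNC1 (0.81). GLUL was followed by SHC4 (0.91), TPMT (0.89) and CTNND2 (0.88), and ALDOC by ARPIN (0.92), PLEKHD1 (0.90) and IFFO2 (0.87). ALDH1L1 was nearest to MLC1 (0.92), GJB6 (0.87) and HTRA1 (0.87), and GJB6 to ALDH1L1 (0.87), HTRA1 (0.83) and TMT1A (0.80). For GJA1 the closest were TMEM47 (0.92), NADK2 (0.90) and ADD3 (0.90), and for SLC4A4 S1PR1 (0.89), KLF12 (0.84) and MAGI3 (0.83). Only ALDH1L1 and GJB6 had another of the 10 among their 3. Of these 30 pairs 22 could be set beside the 29 rat brain libraries, where r was lower: the median was 0.31, the range −0.36 (ALDOC and IFFO2) to 0.80 (S100B and AK3), and 18 were above 0.

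Outside the brain, levels are given as plain CPM. In sheep sperm 8 of the 10 genes were called lower than the mean of the 10 brain regions and 2 higher, beside 74.2% of all genes called, 33.1% higher and 41.1% lower. GFAP was detected with 17 counts in all 5 sperm libraries together, 0.0714 ± 0.138 CPM (SD, n = 5), against 3825 ± 4191 (SD, n = 50) in brain. SLC1A2, SLC1A3, S100B, GJA1 and ALDOC averaged 0.140 to 0.455 CPM, and SLC4A4 averaged 2.67 CPM. ALDH1L1 had 0 counts in all 5 libraries, and against the 3 counts that a count of 0 allows over the group (0.0146 CPM) it was at least 3005-fold lower than in brain on plain CPM. On TMM-scaled CPM, where the same 3 counts come to 0.0736, it was at least 512-fold lower.

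GLUL and GJB6 were the 2 called higher in sheep sperm. The direction of GLUL depended on the scaling and on 1 animal. For GJB6 the size of the call did, and on plain CPM its sperm median (22.6) lay below that of brain (27.5). GLUL stood at 107, 2632, 412, 195 and 271 plain CPM in the 5 animals, a mean of 724 ± 1073 (SD, n = 5), below the 1728 ± 506 (SD, n = 50) of brain and above the animal's own brain in 1 of 5. On TMM-scaled CPM its sperm mean was 3071 and that of brain 1495, a difference on the log2 scale of 1.09 (SE 0.25, adjusted p = 9.65e-05), but without sheep 688 this was −0.17 (adjusted p = 0.449). The call was also lost in limma voom with quality weights (log2 fold change 0.18), with no low-count filter (0.93) and with the sheep as a block (0.83). With the block edgeR's adjusted p was 0.00335, and the call ended because the fold was below 2. GJB6 stood at 2.62, 154, 42.3, 9.61 and 22.6 plain CPM, a mean of 46.3 against 27.0 in brain (1.71 times), above the animal's own brain in 2 of 5 sheep. Its TMM-scaled mean was 196 against 23.1, a log2 fold change of 3.14 (SE 0.24, adjusted p = 4.53e-17), with 2.10 to 3.71 over the 11 alternatives, all called, and 2.10 without sheep 688. Other scalings moved the median of all genes by 0.25 (relative log expression), 0.73 (upper quartile) and 1.47 (DESeq2) on the log2 scale.

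In rat sperm all 10 genes were lower than in male brain, beside 59.1% of all genes called and 31.5% called lower. The enzymes fell least. GLUL held 466 ± 292 plain CPM (SD, n = 15; lowest 169, median 454, highest 1158) against 1412 ± 385 (SD, n = 15) in brain, and fell by 1.30 on the log2 scale (adjusted p = 3.45e-06). ALDOC held 165 ± 70.3 (lowest 33.9, median 152, highest 304) against 1002 ± 273, a log2 fold change of −2.29 (adjusted p = 3.33e-12). ALDH1L1 held 8.27 ± 5.37 (lowest 0, median 7.37, highest 16.4) against 26.5 ± 7.75, a log2 fold change of −1.30 (SE 0.46, adjusted p = 0.0109). The other 7 genes had log2 fold changes from −12.6 (GFAP) to −5.53 (GJA1). Libraries 16 and 17, with 64.5% and 66.2% of genes at 0, were at 0 for ALDH1L1, GJA1, GJB6, S100B, SLC1A2, SLC1A3 and SLC4A4. These zeros lower the sperm means, and that of ALDH1L1 was 9.54 plain CPM without them. Library 16 was at 0 for GFAP as well. Without these libraries all 10 calls held.

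The rat ovary held 2 of the 10 genes above the female brain and 8 below it, beside 56.9% of all genes called, 27.7% higher and 29.2% lower. ALDH1L1 was at 61.3 ± 17.8 plain CPM in ovary (SD, n = 14; lowest 40.4, median 57.4, highest 113) and 22.5 ± 8.54 in brain (lowest 1.48, median 24.9, highest 38.1). The groups did not overlap, although the lowest ovary library was close to the highest brain library. The share of all genes that separate in this way is not given here. ALDH1L1 was above the brain library of the same number in 14 of 14. The log2 fold change was 1.18 (SE 0.12, adjusted p = 8.19e-11). GJA1, the connexin that also couples granulosa cells of the follicle, was at 805 ± 276 plain CPM in ovary (lowest 412, median 733, highest 1410) and 323 ± 112 in brain (lowest 21.5, median 347, highest 442), above the brain library of the same number in 14 of 14. Its log2 fold change of 1.04 (SE 0.13, adjusted p = 8.23e-09) fell to 0.94 with quality weights or with the rat as a block, below the fold of 2 that a call asked for. The lowest plain values in brain were those of library 1. With TMM factors from the fit of female and male brains, library 1 stood at 20.6 for ALDH1L1 and 300 for GJA1.

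SLC1A3 (26.7 plain CPM in ovary, log2 fold change −4.45), GLUL (255, −2.57), S100B (15.8, −4.03), SLC4A4 (18.2, −3.64) and ALDOC (40.1, −4.73) were lower in ovary but detected in all 14 libraries. GFAP (0.600), SLC1A2 (0.331) and GJB6 (0.104) were near 0. Of the wider astrocyte list 1 of 28 was higher in ovary and 22 lower, where 27.7% of all genes were higher and 29.2% lower. Of the reactive and fibrous astrocyte genes 11 of 13 were higher, and of the folate enzymes 6 of 8. Those included LCN2 (7.74, SE 0.34) and TIMP1 (5.83, SE 0.29), and MTHFD2 (3.94, SE 0.13). Of 10 other connexins and pannexins 3 were higher and 6 lower, with a median of −2.54. GJA5 rose by 4.94 (SE 0.26) and GJA4 by 3.70 (SE 0.17), and GJD2 fell by 8.16 (SE 0.28) and GJC3 by 6.65 (SE 0.27). Of 6 endothelial genes 3 rose.

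Between the rat reproductive samples, where sex and organ cannot be told apart, 9 genes could be tested and 50.8% of all genes were called. Ovary was higher for 6, beside 27.9% of all genes higher, and sperm for 3, beside 22.9%. GJA1 (log2 fold change 6.66, SE 0.53) and S100B (6.82, SE 0.68) had the widest gaps toward ovary. ALDOC (−2.36, SE 0.28), GLUL (−1.21, SE 0.24) and SLC1A2 (−2.73, SE 0.88) were higher in sperm, but SLC1A2 turned to 1.11 and GLUL to −0.72 with quality weights, both no longer called. The SLC1A2 sperm mean of 1.67 plain CPM was 1.11 without library 14, and its sperm median (0.214) lay below that of ovary (0.330).

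**Figure D5:**
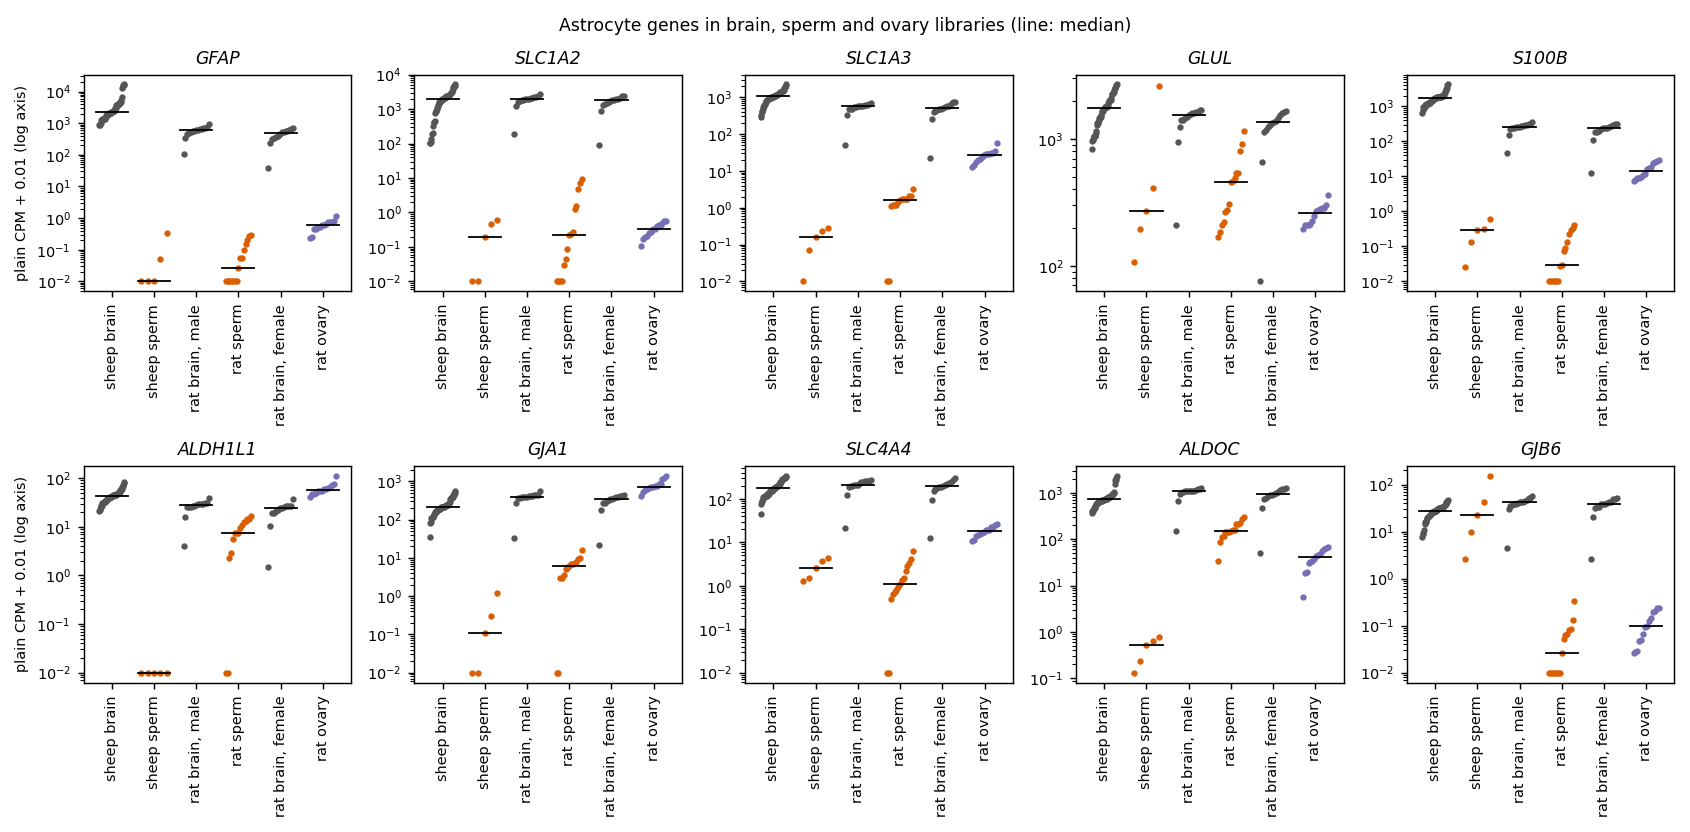
Level of each of the 10 genes (plain CPM + 0.01, log axis) in sheep brain and sperm and in rat male brain, female brain, ovary and sperm, 1 point per library and a line at the median. The rat ovary median lies above that of female brain for ALDH1L1 and GJA1. Sheep sperm spreads across the brain level for GLUL and GJB6, where sheep 688 is highest, and the direction for GLUL depends on the scaling.

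Between female and male rat brains 0 of the 10 genes were called in edgeR's test, where 0.18% of all genes were called. No unadjusted p was below 0.05, the lowest adjusted p was 0.595, and DESeq2 and limma voom with quality weights also called 0 of the 10. GFAP was at 433 ± 76.8 TMM-scaled CPM in females (SD, n = 14) and 500 ± 154 in males (SD, n = 15), a log2 fold change of −0.21 (SE 0.12). The other 9 lay between −0.06 and 0.10. SLC1A2, for example, was at 1565 ± 228 in females and 1534 ± 259 in males.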

How the data were processed

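Per the labels' protocols, TRIzol was used to extract sheep RNA and a Zymo kit to extract rat RNA, which were made into stranded mRNA libraries (Kapa for sheep, Watchmaker for rats) and read in pairs of 150 bases on a NovaSeq X Plus. Per the submitters' processing notes, Trimmomatic 0.39, STAR 2.7.5a and Rsubread 2.20.0 in R 4.4.2 were used, with the builds GRCr8 and ARS-UI_Ramb_v3.0. How the counting treated strand and reads shared by genes is not given in the sources used here. The deposited values are raw counts per gene and library.

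From these counts edgeR 4.0.16's quasi-likelihood test (R 4.3.3) was run on all genes that passed filterByExpr, with TMM factors and Benjamini-Hochberg adjustment over all genes tested. One fit took the 50 sheep brain libraries (21147 genes), another added sheep sperm (21859 genes), and each rat comparison had its own fit. Regions were called at an adjusted p below 0.05, as were the sexes, and comparisons with sperm or ovary also needed a fold of at least 2. Fold changes use edgeR's prior count of 0.125. No p was computed for a list of genes.

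All 10 genes are named in every result. From each other list the counts are given, and by name at most 2 called genes per direction, those of largest fold change. Some genes that this rule names are not reported here. The 10 genes and the lists were chosen with earlier results of these data known. Alternatives were other scaling factors (relative log expression, upper quartile), no low-count filter, DESeq2 1.42.0, limma 3.58.1 voom with and without quality weights, the animal as a block, and leaving out each sheep or the rat libraries that stood apart. The fits of pons against the other regions and of rat ovary against female brain were also run on simulated counts, with outcomes not given here.

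The labels tie the 10 regions and the sperm of a sheep to 1 animal. Deviations from the region means correlated with a median of 0.185 between regions of the same sheep and of −0.040 between sheep, and were above 0.1 in 143 of 225 pairs. The labels do not say whether libraries with the same rat number come from the same rat beyond the number itself. P-values measure the spread between libraries within a group, where each sheep gives 1 library. The main fits held no term for the animal and took libraries of the same sheep as independent. Figures were drawn with matplotlib 3.10.9 in Python 3.11.15.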

Additional observations from a re-analysis of the deposited data

Results flagged for a closer look

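In 110 groups of 5 sheep libraries each (the 10 genes in 10 regions and in sperm), the highest or lowest value stood far from the other 4 by Dixon's criterion in 10 groups. Chance gives about 1 in 20 only for independent, normally distributed values. These values were not log-scaled and the genes share libraries, so the count of 10 is not read against that rate. Of the glutamate genes, GLUL was high in the hippocampus of sheep 699, at 2106 TMM-scaled CPM against 1041 to 1269 in the other 4. In the same sample ALDH1L1 was high, at 60.9 against 38.5 to 42.1. Cerebellum of sheep 687 was low for ALDH1L1, at 20.4 against 26.9 to 29.1, and for GJB6, at 7.21 against 18.1 to 19.7. For GJA1 motor cortex of sheep 687 was high, at 349 against 99.8 to 169, and posterior parietal cortex of sheep 699 was low, at 149 against 236 to 262.

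In sperm, in plain CPM, sheep 688 was high for GLUL, at 2632 against 107 to 412, and for GJB6, at 154 against 2.62 to 42.3. GFAP was high in sperm of sheep 699, at 0.316 against 0 to 0.0407, and GJA1 in sperm of sheep 694, at 1.22 against 0 to 0.292. The last 2 are levels of few reads.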

How the results depend on the processing

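With a fold of at least 2 asked for as well, 11 of the 28 region calls were left. Of the alternatives to single values, 1533 kept their direction and side of the threshold, 41 lost a call, 11 gained one, 17 moved by more than the spread and 2 turned direction: GLUL in sheep sperm became −0.17 without sheep 688 (−0.17 to 1.36 over the 5 sheep left out in turn), and SLC1A2 in rat ovary against sperm became 1.11 with quality weights. The cause was not tested. With the sheep as a replicate block all 100 region results kept their call, and the pairs of regions called for SLC4A4 went from 5 to 7 and for GJA1 from 7 to 9. The block ended 2 calls against brain, those of GLUL in sheep sperm (log2 fold change 0.83) and of GJA1 in ovary (log2 fold change 0.94). In rats, same-numbered libraries correlated with a median of 0.053 (sperm and brain) and −0.00047 (ovary and brain), with 3 of 15 and 1 of 14 above 0.1.

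Over all genes the count called between the sexes was 37 in edgeR, 157 in DESeq2, 290 with quality weights and 74 without rat brain libraries 1 and 4, an alternative chosen after seeing the data. That alternative changed none of the 30 results it was run on. Neocortical calls over all genes went from 4 to between 0 and 6. DESeq2 moved the median of all genes by −0.12 in cerebellum. Of the 15 rat sperm libraries 7 were at 0 for GFAP and for GJB6, 6 for S100B and 4 for SLC1A2. In sheep sperm 3 libraries were at 0 for GFAP and 2 for SLC1A2, and 0 for S100B and GJB6. The part of depth in these values was not tested.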
